A study of Homo sapiens with 12 samples.

Results

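A total of 6 libraries of SW1990 cells, 3 with wild-type rPHGDH and 3 with rPHGDH S371A, of the 12 libraries of the series, were compared across all expressed genes. SW1990 is a human pancreatic cancer line taken from a spleen metastasis of a pancreatic adenocarcinoma. The 6 libraries are those of the table that sets the S371A form beside its own wild-type group, called WT-1 here; the other 6 hold the form S55A and another wild-type group, WT-2. All cells were kept in DMEM with serum and then cultured for 24 h in DMEM without glucose, so that no library comes from cells with glucose. The labels explain neither the prefix of rPHGDH nor how it was expressed, and they say neither whether the cells' own PHGDH was removed nor whether the lines were clones. Nor do they say that replicates were separate cultures; a p-value here is thus set by how far these libraries vary, and that variation may be technical.

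PHGDH oxidises a phosphoglycerate of glycolysis in the first step of serine synthesis, and the title of the series speaks of an alternative activity of the protein in the nucleus. S371A replaces a serine of the protein with alanine. Epithelial cells, ductal cells of the pancreas among them, attach to a laminin-rich basement membrane through integrins and syndecans. Transcripts of adhesion, guidance and matrix genes in such cells commonly respond to YAP and TEAD, a co-activator and its DNA-binding partners that follow cell shape and tension.

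Total counts ranged from 14102906 to 19240270 per library, and a floor of 3 counts stood for 0.155 to 0.212 CPM, counts scaled to the library total, which covers counting error only. Mitochondrial genes took 5.96% to 7.32% of the counts. Replicates correlated across genes with Spearman coefficients of 0.989 to 0.991, against 0.983 to 0.985 between groups, and the biological coefficient of variation was 13.5%. S371A replicates 2 and 3 lay farthest apart on the second principal component, which held 18.4% of the variance; the first, with 38.6%, separated the groups. The 8 ductal markers were all detected and summed to 4697 to 5140 CPM in WT-1 and 5527 to 6487 CPM in S371A, with 2 of 8 called higher. The 8 fibroblast markers summed to 21.8 to 24.0 CPM in WT-1 and 10.3 to 12.97 CPM in S371A, with COL1A2, COL3A1, DCN, LUM and PDGFRA at 0 in all 6 libraries.

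PHGDH itself stood at 470.03, 495 and 456.5 CPM in WT-1 against 196, 183 and 224 CPM in S371A. All 3 S371A libraries lay below all WT-1 libraries, and the log2 fold change was -1.24 ± 0.08. Values with ± beside a gene are log2 fold changes of S371A over WT-1 with their SE, unless CPM is named. The p-values called edgeR adjusted come from its quasi-likelihood test and are corrected by Benjamini and Hochberg's method over all tested genes (here edgeR adjusted p = 0.000316). Counts do not tell the forms of the transcript apart. Every difference below therefore accompanies both the substitution and a lower PHGDH level, and these cannot be told apart.

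Of 58302 listed genes, 16235 had enough counts to be tested and 2042 were called at an adjusted p under 0.05, which is 12.6% of those tested. Of these, 1144 (7.05%) were higher in S371A and 898 (5.53%) lower. The changes were mostly modest, with a median log2 fold change of 0.40 among the genes called higher and -0.42 among those called lower. A change of at least 1 on the log2 scale was reached by 282 called genes, 183 of them higher. The groups did not overlap in 5928 genes (36.5%), which include all 2042 called. Lists of interferon, AP-1 and immediate early, and cell cycle genes hold 468 tested genes, of which 135 were called, so that 1907 calls lay outside them. Calls were more frequent in highly expressed genes: of 3247 genes with a mean level of 75.6 CPM or more 12.2% were called higher, against 3.36% of 3247 genes with at most 2.79 CPM. Of 672 antisense genes 4 were called higher and 41 lower, and of 548 lincRNA genes 11 and 28. Protein-coding genes, 12812 in number, held 1088 higher and 732 lower calls.

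**Figure D1:**
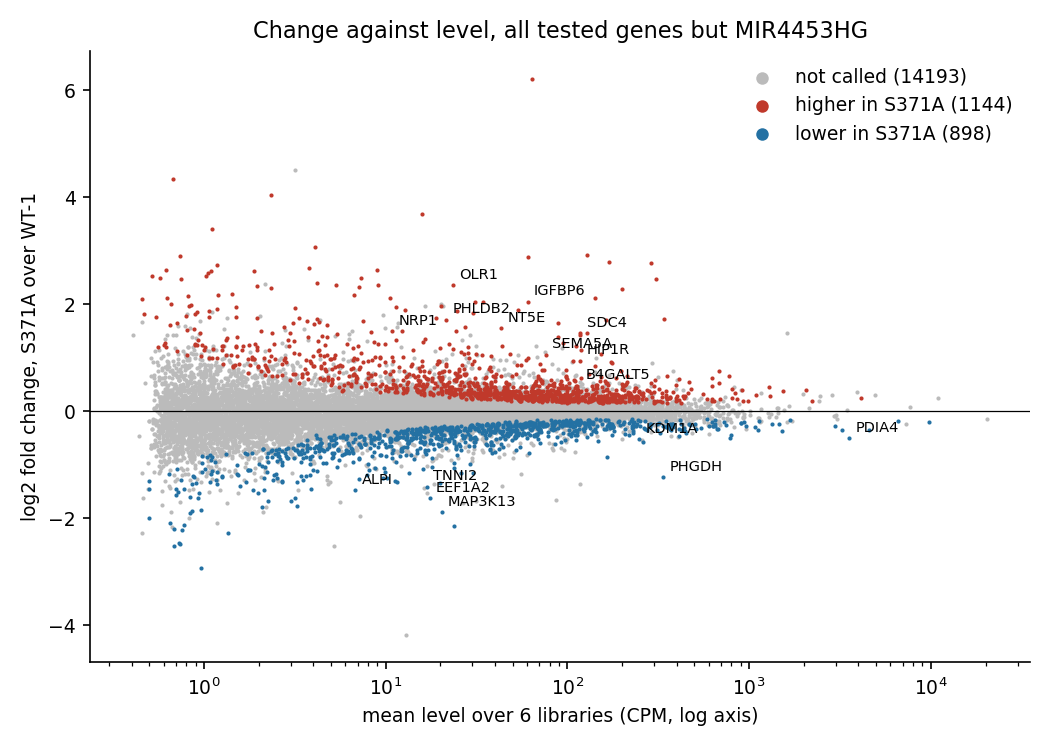
Log2 fold change of S371A over WT-1 against the mean level over the 6 libraries in CPM (log axis), one point per tested gene. Red points are the 1144 genes called higher and blue points the 898 called lower; MIR4453HG, at 0 in every S371A library, is left out because its fold is only bounded, and most called genes lie within 1 log2 unit of 0.

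Members of 82 gene families were then counted in this fit. Any members that are also on the lists named above were kept in these counts. Together 542 of 3462 tested members were called, 299 higher and 243 lower; with upper quartile factors the split was 263 and 282, and with no filter 251 and 276. Family counts are descriptions, without a test of the family. They are read against the 7.05% higher and 5.53% lower among all tested genes, whose median log2 fold change was -0.0075. Most families were limited to protein-coding genes. Of all tested protein-coding genes 8.49% were higher and 5.71% lower. Among genes with a mean level of 75.6 CPM or more, 12.2% were higher and 7.05% lower.

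**Figure D2:**
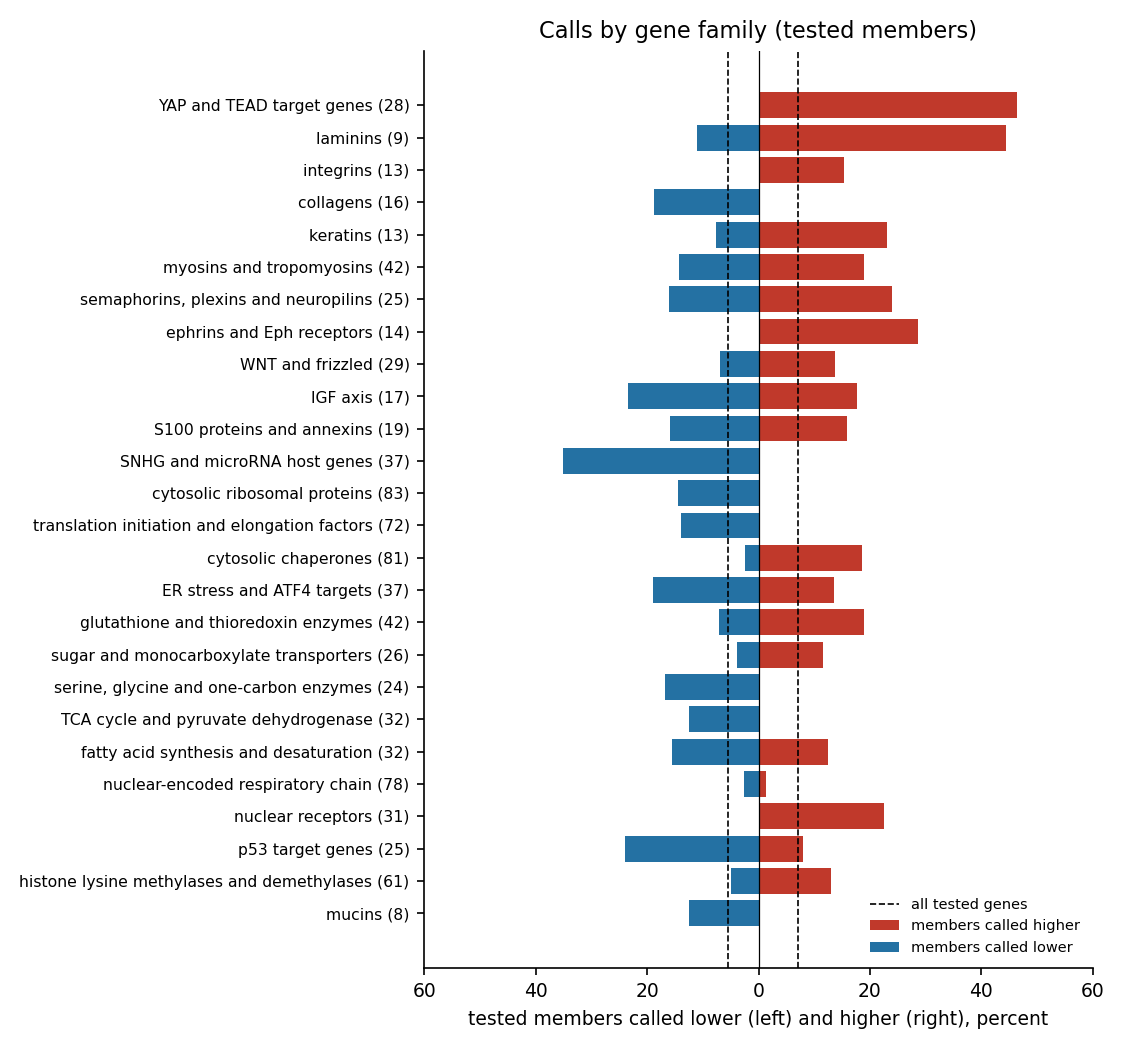
Percent of tested members called lower (left, blue) and higher (right, red) in 26 families, with the number of tested members in brackets. Dashed lines mark the 5.53% lower and 7.05% higher among all tested genes. The YAP and TEAD targets have 13 of 28 members on the right and none on the left. The SNHG and microRNA host genes have 13 of 37 on the left and none on the right.

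NT5E, SDC4, PHLDB2 and TM4SF1 were among the large rises and were named by the size or p of their change, not as an adhesion list. Adhesion families did not move as one. Cadherins and protocadherins held 2 higher and 4 lower calls among 22 (1 or 2 of each without any 1 library). The 8 tested claudins had 0 higher and 0 lower calls, with a median of -0.19. NT5E, the surface enzyme CD73 that turns AMP into adenosine, stood at 22.8, 21.3 and 22.2 CPM in WT-1 against 62.8, 63.1 and 67.8 CPM in S371A. SDC4, a heparan sulfate proteoglycan of focal adhesions, stood at 66.9, 62.6 and 58.6 CPM in WT-1 against 178, 167 and 174 CPM in S371A. PHLDB2, which anchors microtubules at the cell cortex beside adhesions, stood at 10.004, 10.3 and 9.93 CPM in WT-1 against 32.8, 33.5 and 32.8 CPM in S371A. In each of these genes the S371A libraries were close together and far above WT-1, without overlap. The log2 fold changes were 1.55 ± 0.06 for NT5E (edgeR adjusted p = 3.46e-05), 1.46 ± 0.06 for SDC4 (edgeR adjusted p = 4.55e-05) and 1.71 ± 0.06 for PHLDB2 (edgeR adjusted p = 3.15e-05). TM4SF1, a membrane protein of tetraspanin-rich domains, rose by 2.12 ± 0.13 on the log2 scale, from 3.95 ± 0.632 CPM in WT-1 to 17.2 ± 1.01 CPM in S371A (SD, n = 3; edgeR adjusted p = 0.000339).

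NT5E belongs to a list of YAP and TEAD target genes. Of its 28 tested members, 13 (46.4%) were higher and 0 lower, with a median log2 fold change of 0.37 and 25 values above 0. Any members that are also on the AP-1 and immediate early list were kept in this count. Of the 96 tested genes of that list 40.6% were higher and 0 lower. How many members are on both lists was not counted. CYR61 and CTGF were not taken by the naming rule, which leaves such shared members out, and were chosen after their values were seen. CYR61, a secreted matrix-associated protein and a classic target, stood at 7.06, 6.13 and 6.15 CPM in WT-1 against 16.7, 20.6 and 17.2 CPM in S371A. CTGF, its relative, stood at 1.75, 2.001 and 2.09 CPM in WT-1 against 6.16, 5.62 and 7.55 CPM in S371A. Both were low in all WT-1 libraries and separate in S371A, with log2 fold changes of 1.49 ± 0.12 and 1.73 ± 0.16 (edgeR adjusted p = 0.000853 and 0.00179). TEAD1, which binds the DNA for YAP, rose by 0.65 ± 0.05 (edgeR adjusted p = 0.000989). CRIM1, a membrane protein that binds bone morphogenetic proteins, rose by 0.76 ± 0.06, and MYOF, a ferlin of membrane repair, by 0.36 ± 0.04. Without any 1 library the higher count was 9 to 12.

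Among the 9 tested laminins, the trimeric proteins of basement membranes, 4 were higher and 1 lower. LAMA3, the alpha chain of the epithelial laminin, stood at 6.29, 6.88 and 6.26 CPM in WT-1 against 16.9, 16.5 and 15.4 CPM in S371A. All 3 S371A libraries exceeded all WT-1 libraries, by 1.33 ± 0.09 on the log2 scale (edgeR adjusted p = 0.000438). LAMB3, a beta chain of epithelial laminin, was not called, at 0.23 ± 0.07 (edgeR adjusted p = 0.0645). LAMA1, another alpha chain, rose by 0.69 ± 0.10, and LAMB2, a beta chain, fell, at -0.33 ± 0.04.

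Integrins, the receptors of these matrix proteins, held 2 higher calls among 13. ITGB8, a subunit that helps to release TGF-beta from its latent form, stood at 2.58, 1.63 and 4.66 CPM in WT-1 against 14.7, 15.3 and 15.9 CPM in S371A. Its WT-1 libraries were spread widely but all lay below S371A, at 2.36 ± 0.34 (edgeR adjusted p = 0.0116; 0.053 without WT-1 replicate 1, which leaves 1 of the 2 integrin calls). ITGA2, part of a collagen receptor, rose by 0.40 ± 0.05. Collagens had 0 higher and 3 lower calls among 16, with a median of -0.38. COL6A1 fell from 10.3, 10.7 and 11.7 CPM in WT-1 to 5.66, 6.42 and 7.17 CPM in S371A, at -0.76 ± 0.12 (edgeR adjusted p = 0.00999), and COL4A2, a basement membrane chain, was at -0.40 ± 0.06 (edgeR adjusted p = 0.00941). PDGFRB, a growth factor receptor and the called member of the fibroblast markers, fell from 21.7 ± 1.44 CPM in WT-1 to 10.2 ± 1.19 CPM in S371A (edgeR adjusted p = 0.00221). It made up nearly all of the summed fibroblast markers, and COL1A1, another of them, was not called, at 1.18 ± 0.416 CPM in WT-1 to 0.931 ± 0.157 CPM in S371A (edgeR adjusted p = 0.548). TIMP2 and TIMP3, inhibitors of matrix proteases, rose by 0.56 ± 0.08 and 0.51 ± 0.06. The list of matrix metalloproteinases, ADAM proteases and such inhibitors had 4 higher and 4 lower calls among 24, with a median of 0.03. Without any 1 library 2 to 3 were higher and 0 to 2 lower.

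The actin cytoskeleton moved in both directions. Of 42 tested myosins, tropomyosins and related genes, 8 were higher and 6 lower; without WT-1 replicate 2 or S371A replicate 3 the higher count was 4. MYH9, the main non-muscle myosin heavy chain of epithelial cells, stood at 797, 766 and 791 CPM in WT-1 against 996, 1022 and 1089 CPM in S371A. The groups were separate, at 0.40 ± 0.05 (edgeR adjusted p = 0.00337). TPM1, a tropomyosin, was at 0.88 ± 0.16 (edgeR adjusted p = 0.0249) and CALD1, caldesmon, at 0.90 ± 0.16 (edgeR adjusted p = 0.0144), but neither call held without every library, the adjusted p reaching 0.0824 for TPM1 without 1 of WT-1 replicate 2, S371A replicate 1 and S371A replicate 3, and 0.0544 for CALD1 without WT-1 replicate 2 or 3. ROCK2, a kinase that activates myosin, rose by 0.40 ± 0.06, and PDLIM7, a scaffold on actin filaments, by 0.89 ± 0.10. On the lower side stood MYO1A, the brush-border myosin (-1.39 ± 0.24), MYO15B, an unconventional myosin (-0.98 ± 0.15), and TNNI2, a troponin subunit, at 23.8, 24.7 and 24.9 CPM in WT-1 against 9.77, 9.88 and 7.997 CPM in S371A. All 3 S371A libraries of TNNI2 lay below WT-1, at -1.41 ± 0.10 (edgeR adjusted p = 0.000542).

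Of 13 tested keratins 3 were higher and 1 lower. KRT17, a keratin of basal and stressed epithelia, stood at 7.58, 10.6 and 7.96 CPM in WT-1 against 26.98, 27.9 and 32.2 CPM in S371A. It rose by 1.74 ± 0.14 (edgeR adjusted p = 0.00104), with 13.7% of its sequence windows also present in a pseudogene. KRT18, a keratin of simple epithelia, rose by 0.45 ± 0.04. Its partner KRT8 was not called, at 0.29 ± 0.14 (edgeR adjusted p = 0.238), with S371A replicate 2 at 3287 CPM and replicates 1 and 3 at 2440 and 2374 CPM. KRT20, a keratin of intestinal and some pancreatic epithelia, was lower, at -0.39 ± 0.05 (edgeR adjusted p = 0.0039). 

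A few epithelial genes with large falls are described together, a grouping made after the values were seen and not a list; the summed ductal markers were higher in S371A. ALPI, intestinal alkaline phosphatase of the brush border, stood at 10.2, 10.2 and 9.604 CPM in WT-1 against 4.11, 3.46 and 3.26 CPM in S371A. LGALS4, a galectin of intestinal epithelium, stood at 14.1, 15.4 and 13.7 CPM in WT-1 against 5.59, 5.37 and 7.101 CPM in S371A. SLPI, a secreted protease inhibitor, stood at 12.5, 14.6 and 12.6 CPM in WT-1 against 6.302, 6.795 and 6.01 CPM in S371A. Each gene was lower in all 3 S371A libraries, at -1.47 ± 0.12, -1.25 ± 0.13 and -1.05 ± 0.11 (edgeR adjusted p = 0.000952, 0.00249 and 0.00239). S100P, a calcium-binding protein abundant in pancreatic cancer, fell, at -0.70 ± 0.07, as did MUC5B, a gel-forming mucin, from 2.25 ± 0.254 CPM in WT-1 to 0.462 ± 0.0986 CPM in S371A. MUC5B was the called member among 8 tested mucins, whose median was 0.16 with 5 values above 0; DESeq2 gave no adjusted p for it. In the S100 and annexin family 3 of 19 were higher and 3 lower, and without WT-1 replicate 3 the lower count was 1. The annexins ANXA3 (0.75 ± 0.04) and ANXA1 (0.58 ± 0.08), which bind membranes in the presence of calcium, were on the higher side.

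**Figure D3:**
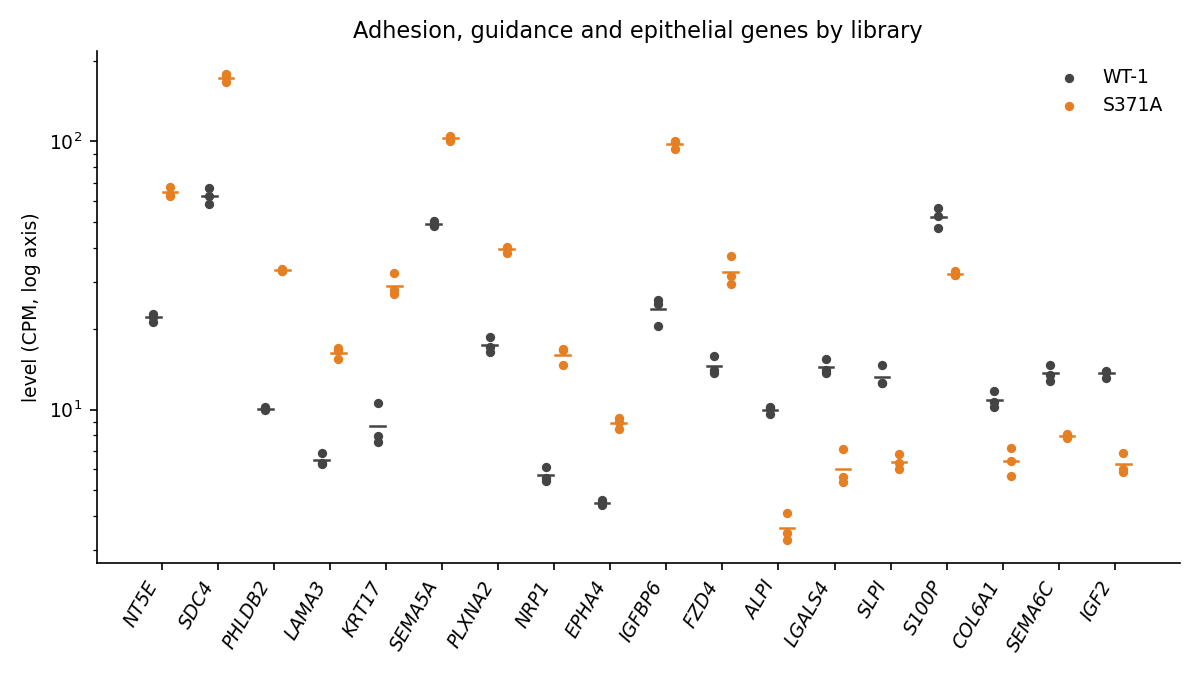
Level of 18 adhesion, guidance and epithelial genes in each library, in CPM on a log axis; grey points are WT-1, orange points S371A, and bars the means of 3 libraries. The genes from NT5E to FZD4 are higher and those from ALPI to IGF2 lower in all 3 S371A libraries, and the groups overlap in none of them.

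Receptors and ligands of axon guidance, which also steer epithelial and vessel growth, formed another mixed group. Of 25 tested semaphorins, plexins and neuropilins 6 were higher and 4 lower; without WT-1 replicate 2 or S371A replicate 3 the lower count was 1, and without any 1 library 4 or 5 were higher. SEMA5A, a transmembrane semaphorin, stood at 50.6, 48.5 and 48.9 CPM in WT-1 against 100.1, 103 and 105 CPM in S371A. PLXNA2, a semaphorin receptor, stood at 16.4, 18.6 and 17.1 CPM in WT-1 against 40.1, 40.5 and 38.5 CPM in S371A. NRP1, a co-receptor for secreted semaphorins and for VEGF, stood at 5.41, 6.13 and 5.54 CPM in WT-1 against 16.8, 14.7 and 16.6 CPM in S371A. No library of one group reached the other in any of these genes. The log2 fold changes were 1.06 ± 0.04, 1.19 ± 0.07 and 1.49 ± 0.10 (edgeR adjusted p = 4.55e-05, 0.000229 and 0.000438). SEMA6C, another transmembrane semaphorin, was lower, at -0.78 ± 0.09 (edgeR adjusted p = 0.0037).

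Ephrins and their Eph receptors, contact-dependent signalling partners, had 4 higher and 0 lower calls among 14, with 1 lower without WT-1 replicate 1. EPHA4 stood at 4.59, 4.501 and 4.39 CPM in WT-1 against 8.99, 8.46 and 9.28 CPM in S371A, EPHA2 rose by 0.43 ± 0.04 and the ligand EFNB2 by 0.38 ± 0.04. EPHA4 was separate in all libraries, at 0.99 ± 0.10 (edgeR adjusted p = 0.00217). The median of the family, 0.0078, turned negative with upper quartile scaling.

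In the WNT and frizzled list 4 of 29 were higher and 2 lower, the lower count being 0 without any WT-1 library and 1 without any S371A library. FZD4, a WNT receptor, stood at 13.7, 15.9 and 13.99 CPM in WT-1 against 29.5, 31.4 and 37.2 CPM in S371A. WNT5A, a non-canonical ligand, stood at 8.41, 9.69 and 8.34 CPM in WT-1 against 14.4, 22.3 and 21.6 CPM in S371A. S371A replicate 1 had the lowest WNT5A level of its group but still exceeded every WT-1 library. The values were 1.17 ± 0.11 and 1.14 ± 0.18 on the log2 scale (edgeR adjusted p = 0.00179 and 0.00989). LGR5, a receptor for R-spondins and a marker of intestinal stem cells, rose by 0.58 ± 0.07. TNFRSF12A, the receptor of TWEAK, rose by 1.11 ± 0.10 (edgeR adjusted p = 0.00124).

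The insulin-like growth factor axis had 3 higher and 4 lower calls among 17, the latter 2 to 3 without any 1 library. IGFBP6, which binds IGF2 with preference, stood at 25.6, 24.7 and 20.5 CPM in WT-1 against 99.99, 93.7 and 99.2 CPM in S371A. IGF2, the ligand, stood at 13.8, 13.1 and 13.9 CPM in WT-1 against 6.87, 5.87 and 6.01 CPM in S371A. The groups were separate in both and moved in opposite directions, 2.05 ± 0.09 and -1.13 ± 0.10 (edgeR adjusted p = 4.75e-05 and 0.00129). IGF2R, the receptor that clears IGF2, was lower, at -0.32 ± 0.04, and IRS1, an adaptor of the insulin and IGF1 receptors, rose by 0.26 ± 0.04. A same-strand gene model of the same name shares 87.1% of the IGF2 windows, so its count is uncertain.

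The largest rises also included OLR1, a scavenger receptor for oxidised lipoprotein, at 8.15, 8.63 and 6.26 CPM in WT-1 against 39.6, 36.5 and 41.8 CPM in S371A. KLK14, a kallikrein protease, stood at 2.42, 2.69 and 2.25 CPM in WT-1 against 9.701, 11.7 and 11.6 CPM in S371A. NOCT, a phosphatase of NADP(H) with a circadian rhythm in mouse liver, stood at 7.37, 9.25 and 8.07 CPM in WT-1 against 32.8, 32.9 and 30.3 CPM in S371A. All 3 were low in every WT-1 library and high in every S371A library. They rose by 2.36 ± 0.13, 2.17 ± 0.13 and 1.96 ± 0.10 (edgeR adjusted p = 0.000156, 0.000272 and 0.000118). SP8, a zinc-finger transcription factor of limb and brain development, rose by 1.94 ± 0.10, RARRES3, a retinoid-responsive phospholipase, by 1.89 ± 0.12, and TMEM52B, a membrane protein, by 2.33 ± 0.13. At higher levels, HIP1R, an actin- and clathrin-binding protein of endocytosis, stood at 64.9, 66.96 and 59.8 CPM in WT-1 against 181, 169 and 165 CPM in S371A. Its groups were far apart, at 1.43 ± 0.06 (edgeR adjusted p = 4.55e-05). KIAA1191 rose by 1.28 ± 0.09, and among the Golgi glycosyltransferases B4GALT5, which makes lactosylceramide, rose by 0.94 ± 0.04 (edgeR adjusted p = 7.49e-05).

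Among the largest falls, MAP3K13, a kinase upstream of JNK, stood at 30.1, 34.7 and 31.3 CPM in WT-1 against 9.84, 8.34 and 7.87 CPM in S371A. EEF1A2, a tissue-restricted elongation factor, stood at 25.3, 26.01 and 27.9 CPM in WT-1 against 7.58, 8.28 and 9.72 CPM in S371A. RASIP1, a Ras-interacting protein of endothelial junctions, stood at 27.3, 27.9 and 30.3 CPM in WT-1 against 12.04, 11.1 and 10.4 CPM in S371A. Each was lower in all S371A libraries, at -1.88 ± 0.11, -1.63 ± 0.11 and -1.35 ± 0.09 (edgeR adjusted p = 0.000196, 0.000424 and 0.000346). SLC7A2, a transporter of cationic amino acids, stood at 56.6, 29.01 and 30.7 CPM in WT-1 against 7.08, 9.95 and 9.404 CPM in S371A. WT-1 replicate 1 was far above replicates 2 and 3, yet all lay above S371A; the value was -2.14 ± 0.32 (edgeR adjusted p = 0.0151, and 0.0628 without S371A replicate 3).

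One transcript was present in WT-1 and had no count in S371A. MIR4453HG, annotated as a bidirectional promoter lncRNA and host of a microRNA, lies on chromosome 4 at 152536264 to 152539263 (GRCh38). It had 129, 117 and 117 counts in the 3 WT-1 libraries (6.65, 7.31 and 6.42 CPM in WT-1 against 0, 0 and 0 CPM in S371A). The S371A level was at least 34.6-fold lower, taking a floor of 3 counts in each S371A library, and its edgeR adjusted p was 0.000372. No other tested gene was at 0 in all libraries of one group with 30 or more counts over the other. FBXW7, the substrate receptor of a ubiquitin ligase, is read from the other strand, and 162 bases separate the starts of the 2 gene models. Its level was 46.3, 45.4 and 46.7 CPM in WT-1 against 46.2, 47.5 and 48.3 CPM in S371A, where the groups overlapped, and its log2 fold change was 0.04 ± 0.05 (edgeR adjusted p = 0.653). The stretch between the 2 gene models, shown because the gene on its right had no count in S371A and the gene on its left was not called, is given for the forward strand (chr4:152536082-152536283, RefSeq promoter sequence, GRCh38.p14), with the 162 bases between the models in capitals and 20 bases of each flank in lower case:
FBXW7 to MIR4453HG: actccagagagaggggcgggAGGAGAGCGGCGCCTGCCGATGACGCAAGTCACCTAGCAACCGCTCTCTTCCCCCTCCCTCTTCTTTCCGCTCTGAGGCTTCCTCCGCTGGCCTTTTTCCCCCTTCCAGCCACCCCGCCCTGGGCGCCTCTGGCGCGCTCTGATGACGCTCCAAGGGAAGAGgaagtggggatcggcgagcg
Of these 162 bases 65.4% are G or C. Among 16 other tested genes within 2000000 bases on each side, chosen for a look after the values were seen, log2 fold changes ranged from -0.48 to 0.28. SH3D19, an adaptor with SH3 domains, was the one called, at 0.25 ± 0.04 (edgeR adjusted p = 0.014; 0.0543 without WT-1 replicate 1).

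**Figure D4:**
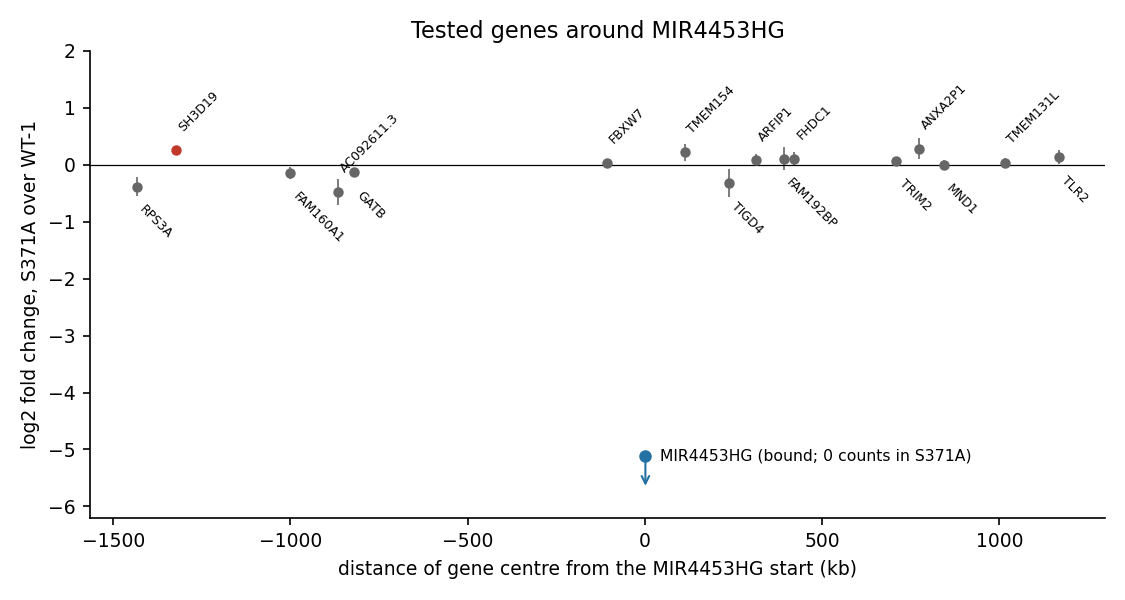
Log2 fold change of S371A over WT-1 for the tested genes around MIR4453HG against the distance of each gene's centre from its start in kb; error bars are SE, red marks a call. MIR4453HG is drawn at its bound with an arrow, since S371A had 0 counts, while the 16 other genes lie between -0.48 and 0.28.

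Of 83 tested cytosolic ribosomal protein genes 0 were higher and 12 (14.5%) lower, with a median of -0.18 and 74 values below 0. The lower count depended on single libraries: it was 9, 6 and 4 without WT-1 replicates 1, 2 and 3, and 20, 7 and 8 without S371A replicates 1, 2 and 3. RPL5, which binds a small ribosomal RNA, stood at 744, 771 and 742 CPM in WT-1 against 604, 593 and 602 CPM in S371A. RPL22, an RNA-binding protein of the large subunit, stood at 267, 265 and 252 CPM in WT-1 against 197, 189 and 206 CPM in S371A. No S371A library reached a WT-1 library in either, at -0.33 ± 0.04 and -0.40 ± 0.05 (edgeR adjusted p = 0.00287 and 0.00375). RPL10A was at -0.35 ± 0.04 and RPL13A at -0.27 ± 0.05 (edgeR adjusted p = 0.0048 and 0.0172); the call of RPL13A was lost without any WT-1 library, with an adjusted p of up to 0.0648. Pseudogenes share 19.5% to 33.7% of the windows of RPL5, RPL22, RPL13A and RPL10A, so their counts are uncertain.

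Translation initiation and elongation factors had 0 higher and 10 lower calls among 72, and 5 to 11 lower without any 1 library, the fewest without WT-1 replicate 3; 3 were higher without S371A replicate 1 and 1 without S371A replicate 2. EIF4B, a cofactor of the initiation helicase, stood at 906, 921 and 922 CPM in WT-1 against 655, 659 and 709.7 CPM in S371A. EIF4A2, a form of that helicase, stood at 480.2, 472 and 478 CPM in WT-1 against 371.3, 375 and 373 CPM in S371A. The S371A libraries were lower throughout, at -0.44 ± 0.04 and -0.35 ± 0.03 (edgeR adjusted p = 0.00204 and 0.00179). EEF1B2, an exchange factor of elongation, was at -0.30 ± 0.04. EEF1A1, the general elongation factor, was not called, at -0.14 ± 0.16 (edgeR adjusted p = 0.622). Pseudogenes share 43.9% of the windows of EIF4B, 43.1% of EEF1B2 and 41.0% of EEF1A1.

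SNHG genes, noncoding transcripts whose introns hold small nucleolar RNAs, and microRNA host genes had 0 higher and 13 (35.1%) lower calls among 37, with a median of -0.34. Without any 1 library the lower count was 9 to 11, and 1 was higher without WT-1 replicate 2. Several noncoding classes also had medians below 0. The median was -0.12 for 180 processed transcripts, -0.15 for lincRNA genes and -0.22 for antisense genes, but 0.07 for 41 sense-overlapping genes. Of the processed transcripts 1.67% were called higher and 11.1% lower. SNHG1 stood at 105, 95.6 and 107 CPM in WT-1 against 71.8, 73.9 and 73.3 CPM in S371A. SNHG5 stood at 53.7, 52.6 and 49.997 CPM in WT-1 against 37.3, 30.95 and 33.5 CPM in S371A. SNHG12 stood at 25.99, 26.6 and 26.7 CPM in WT-1 against 19.97, 18.1 and 17.2 CPM in S371A. The S371A libraries lay below WT-1 in all 3 genes, at -0.49 ± 0.05, -0.62 ± 0.08 and -0.52 ± 0.08 (edgeR adjusted p = 0.00319, 0.00488 and 0.00819). SNHG26 was at -0.82 ± 0.10.

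Ribosomal protein and many SNHG genes are known to start at a C within a run of pyrimidines, the terminal oligopyrimidine motif of transcripts whose translation follows mTOR. The RefSeq start regions of some lower members are shown to compare that feature, as 15 bases before and 15 from the start on (GRCh38.p14, written on the strand of the gene). Capitals mark a run of 5 or more C or T that begins with C within 5 bases of the start; window and run length were set after the values were seen.
RPL22 (chr1:6199581-6199610 on the reverse strand): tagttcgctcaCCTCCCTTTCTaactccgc
RPL10A (chr6:35468386-35468415): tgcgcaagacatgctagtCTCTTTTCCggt
RPL13A (chr19:49487593-49487622): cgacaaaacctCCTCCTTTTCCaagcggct
EIF4A2 (chr3:186783562-186783591): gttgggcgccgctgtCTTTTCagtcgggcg
EIF4B (chr12:53006441-53006470): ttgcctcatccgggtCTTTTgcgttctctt
EEF1B2 (chr2:206159594-206159623): gccggaagtggccccagcctcgaggccggg
SNHG5 (chr6:85678719-85678748 on the reverse strand): gctgcgcacttcggtCTTTTacgtcggcct
SNHG12 (chr1:28581859-28581888 on the reverse strand): tcgcggcttcagcgCCCTTTCTCCCCgccg
SNHG1 (chr11:62855871-62855900 on the reverse strand): ccggggagattcgttctcatttttctactg
SNHG26 (chr7:22854225-22854254): ccttttaaacttgatctccgcagtgccctc
Of these 10 starts, 7 hold such a run, and EEF1B2, SNHG1 and SNHG26 do not. Among the lower SNHG and host genes with a sequence, 6 hold it and 5 do not. It was found on the strand of the gene in 21.1% of 27305 RefSeq start regions, in 52 of 67 ribosomal protein genes with a sequence (77.6%), in 15 of 32 SNHG and host genes (46.9%) and in 21 of 56 translation factors (37.5%). Of all 11015 tested genes with a sequence, 6.93% of those with the run and 5.16% of those without it were called lower, and 5.97% and 8.95% were called higher.

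**Figure D5:**
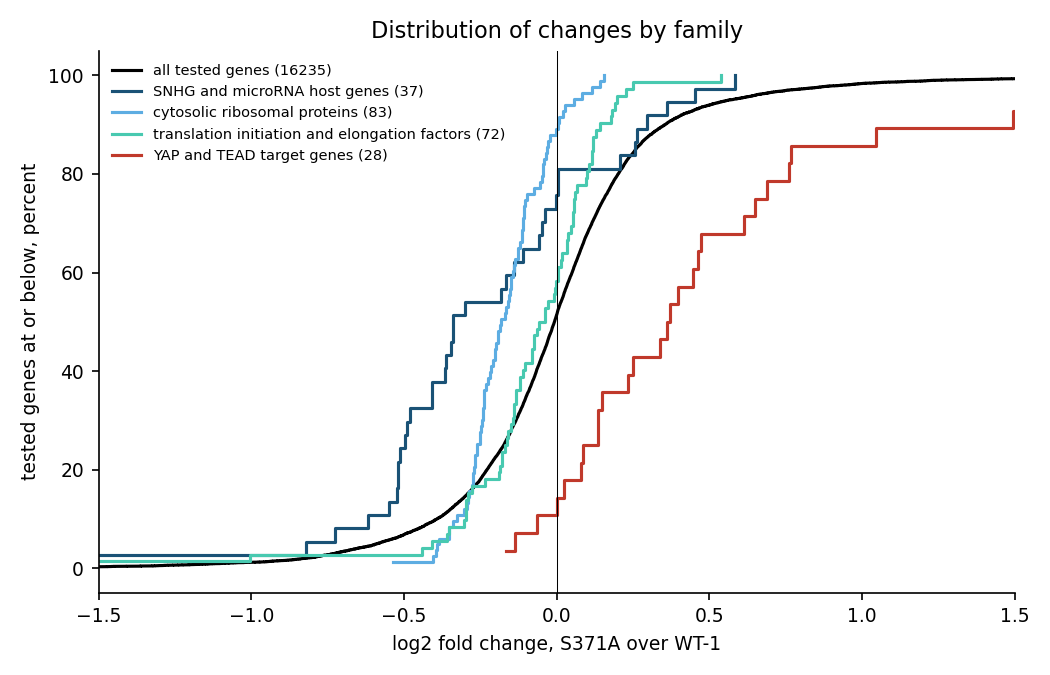
Cumulative percent of tested genes at or below each log2 fold change of S371A over WT-1, for all 16235 tested genes (black) and 4 families. The curves of the ribosomal genes and of the SNHG and microRNA host genes lie left of the black curve through the middle of the distribution. Their medians are -0.18 and -0.34. The YAP and TEAD curve lies to the right of the black curve, with a median of 0.37. The axis is limited to 1.5 on each side.

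Chaperones of the cytosol and of the endoplasmic reticulum (ER) were counted apart. Of 81 tested cytosolic chaperones and cofactors 15 were higher and 2 lower, with 9 higher without WT-1 replicate 1 or 2 and 1 lower without WT-1 replicate 1 or 3 or S371A replicate 3. DNAJA4, a co-chaperone of HSP70, stood at 23.6, 24.3 and 23.6 CPM in WT-1 against 41.99, 43.2 and 40.2 CPM in S371A. HSPA1A, the inducible HSP70, stood at 334, 325 and 314 CPM in WT-1 against 526, 459.7 and 494 CPM in S371A. The S371A libraries were higher throughout, at 0.81 ± 0.06 and 0.60 ± 0.06 (edgeR adjusted p = 0.000566 and 0.00179), though 69.8% of the HSPA1A windows also occur in HSPA1B. DNAJB4 (0.66 ± 0.08), BAG3, which links HSP70 to autophagy (0.57 ± 0.07), and HSPH1, an exchange factor of HSP70 (0.28 ± 0.04), rose as well. DNAJB1, another co-chaperone, was at 0.61 ± 0.13 (edgeR adjusted p = 0.035), a call that held without S371A replicate 1 and was lost without each other library, with an adjusted p of up to 0.104.

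In the list of ER stress and ATF4 target genes 5 of 37 were higher and 7 lower. The lower members given here are chaperones and folding enzymes of the ER lumen, of which CALR and HSP90B1 were chosen after their values were seen. The lowest value of the list, -1.06, belongs to another gene. PDIA4, a protein disulfide isomerase, stood at 4146, 4167 and 4205 CPM in WT-1 against 3029.8, 2838 and 3006 CPM in S371A. CALR, calreticulin, stood at 3710.1, 3601 and 3614 CPM in WT-1 against 2962, 2869 and 2736 CPM in S371A. HSP90B1, the ER form of HSP90, stood at 5131, 4991 and 5250.4 CPM in WT-1 against 3928, 4225 and 3832 CPM in S371A. No S371A library reached WT-1 in these abundant transcripts, at -0.50 ± 0.04, -0.35 ± 0.04 and -0.36 ± 0.05 (edgeR adjusted p = 0.000832, 0.00396 and 0.00568). PDIA3, another isomerase, was at -0.38 ± 0.04. HSPA5, the main HSP70 of the ER and the usual marker of its stress, was not called, at 0.09 ± 0.04 (edgeR adjusted p = 0.201). PPP1R15A, which reverses the block of initiation under stress, rose by 0.62 ± 0.05, and DDIT4, an inhibitor of mTOR, by 0.34 ± 0.04; 41.2% of the exonic bases of DDIT4 lie opposite an antisense gene.

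Enzymes of glutathione and thioredoxin, which keep thiols reduced, had 8 higher and 3 lower calls among 42; without WT-1 replicate 1 or 3 the lower count was 1. GCLC, the catalytic subunit of the enzyme that limits glutathione synthesis, stood at 115, 94.9 and 93.5 CPM in WT-1 against 179.5, 193 and 170.3 CPM in S371A. GCLM, its modifier subunit, stood at 52.6, 55.96 and 51.5 CPM in WT-1 against 77.8, 82.7 and 91.1 CPM in S371A. GSTM4, a glutathione transferase, stood at 70.6, 78.5 and 73.5 CPM in WT-1 against 170.2, 144.6 and 174 CPM in S371A. All S371A libraries exceeded all WT-1 libraries, at 0.84 ± 0.09, 0.65 ± 0.07 and 1.14 ± 0.08 (edgeR adjusted p = 0.00321, 0.00279 and 0.00056). SRXN1, sulfiredoxin, rose by 0.77 ± 0.08 and TXNRD1, thioredoxin reductase, by 0.55 ± 0.09; another gene model on the same strand shares 84.5% of the SRXN1 windows. SLC7A11, which imports the cystine that glutathione synthesis needs, rose by 0.36 ± 0.05 (edgeR adjusted p = 0.0061).

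The glucose transporters SLC2A1 and SLC2A3 were higher. SLC2A1, the general transporter GLUT1, stood at 612, 637 and 553 CPM in WT-1 against 973, 898 and 984 CPM in S371A. The groups were separate, at 0.66 ± 0.06 (edgeR adjusted p = 0.00196). SLC2A3 rose by 0.56 ± 0.10 and SLC2A13, a myo-inositol transporter, by 0.64 ± 0.08. These are the 3 higher calls among 26 sugar and monocarboxylate transporters, of which 1 was lower (0 without any 1 library).

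In the pathway of PHGDH itself, 0 of 24 tested serine, glycine and one-carbon genes were higher and 4 lower, the lower count being 2 without WT-1 replicate 2 or 3. PSAT1, the enzyme after PHGDH in serine synthesis, stood at 564, 573 and 564 CPM in WT-1 against 575, 550.1 and 557 CPM in S371A. The groups overlapped, at -0.01 ± 0.04 (edgeR adjusted p = 0.829). ALDH1L1, which oxidises formyl-tetrahydrofolate, fell, at -0.45 ± 0.06 (edgeR adjusted p = 0.00461). A list of tricarboxylic acid cycle, pyruvate dehydrogenase and related genes had 0 higher and 4 lower calls among 32, with a median of -0.04. Without any 1 library 1 or 2 were lower. The list is wider than the mitochondrial cycle and holds cytosolic enzymes such as IDH1. IDH1, the cytosolic isocitrate dehydrogenase, stood at 443, 508 and 481 CPM in WT-1 against 348, 336 and 355 CPM in S371A. It was lower in every S371A library, at -0.46 ± 0.06 (edgeR adjusted p = 0.00451). The nuclear-encoded respiratory chain had 1 higher and 2 lower calls among 78, and 0 to 2 higher and 1 to 3 lower without any 1 library.

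Fatty acid genes moved both ways, with 4 higher and 5 lower calls among 32; without any 1 library the lower count was 2 or 3, and without WT-1 replicate 1 the higher count was 2. FADS1 and FADS2, neighbouring desaturases that act in the same route to polyunsaturated fatty acids, went in opposite directions. FADS1 stood at 50.1, 47.1 and 51.9 CPM in WT-1 against 34.1, 36.5 and 35.3 CPM in S371A. FADS2 stood at 8.77, 11.2 and 9.55 CPM in WT-1 against 16.4, 19.5 and 17.1 CPM in S371A. Neither gene's groups overlapped, with -0.49 ± 0.06 for FADS1 and 0.85 ± 0.12 for FADS2 (edgeR adjusted p = 0.00447 and 0.00723). MLXIPL, the carbohydrate-response factor ChREBP, was lower, at 44.7, 48.8 and 45.2 CPM in WT-1 against 30.8, 26.9 and 27.9 CPM in S371A. Its change was -0.70 ± 0.07 (edgeR adjusted p = 0.0026).

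Of 31 tested nuclear receptors 7 were higher and 0 lower, with 4 to 5 higher without any 1 library other than S371A replicate 1, whose absence gave 7; 1 was lower without WT-1 replicate 2. NR1D1, a repressor of the circadian clock, stood at 19.5, 20.1 and 19.4 CPM in WT-1 against 32.998, 34.5 and 34.7 CPM in S371A. The groups were separate, at 0.79 ± 0.06 (edgeR adjusted p = 0.000726). Its relative NR1D2 rose by 0.49 ± 0.07 and NR2F1, an orphan receptor of development, by 1.38 ± 0.20 from a low level.

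Among 25 genes listed as p53 targets 2 were higher and 6 lower. Both counts depended on single libraries, with 3 to 6 lower and 0 to 1 higher without any one of them. TP53INP1, a cofactor of p53 in stress, stood at 33.4, 32.2 and 31.2 CPM in WT-1 against 21.1, 18.04 and 19.2 CPM in S371A. SPATA18, a mitochondrial quality-control protein, stood at 19.3, 18.4 and 17.9 CPM in WT-1 against 10.6, 11.3 and 11.8 CPM in S371A. Both were lower in every S371A library, at -0.73 ± 0.08 and -0.72 ± 0.08 (edgeR adjusted p = 0.0028 and 0.00343), and ZMAT3, an RNA-binding protein, was at -0.44 ± 0.06. CDKN1A, the cell cycle inhibitor p21, was at 0.28 ± 0.06 (edgeR adjusted p = 0.0246), a call that held without S371A replicate 2 and was lost without each other library, with an adjusted p of up to 0.0832. GDF15, a secreted stress factor of the TGF-beta family, is not on the p53 list, whose highest value was 0.38. GDF15 stood at 513, 518 and 485 CPM in WT-1 against 889, 772 and 907 CPM in S371A. It rose by 0.76 ± 0.07 (edgeR adjusted p = 0.00143). The TGF-beta, BMP and SMAD list had 1 higher and 2 lower calls among 40 (2.5% and 5.0%). Without any 1 library these counts were 1 to 2 and 1 to 3.

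Histone lysine methylases and demethylases had 8 higher and 3 lower calls among 61, with 3 higher without WT-1 replicate 1 or 2 and 1 or 2 lower without any 1 library. KDM1A, the demethylase LSD1, stood at 297, 293 and 289 CPM in WT-1 against 209, 201 and 202 CPM in S371A. It was lower without overlap, at -0.52 ± 0.04 (edgeR adjusted p = 0.000516). KDM6B, which removes a repressive methyl mark from histones, was at 0.55 ± 0.10 (edgeR adjusted p = 0.0148; 0.0559 without WT-1 replicate 2).

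The effect of S371A was set against that of S55A through the difference of the 2 effects over all 12 libraries, each mutant relative to its own wild type. Of 16214 genes in that test 2037 (12.6%) differed. Each mutant belongs to 1 experiment, so mutant and experiment cannot be told apart. Of the 25 largest rises named by the rule, 18 differed and all 18 were larger in S371A, while 7 of the 25 were also called higher in S55A and 1 was called lower. Of the 25 largest falls 23 could be tested, and 13 differed, 12 of them with the stronger fall in S371A; 7 of the falls were also called lower in S55A and 3 were called higher. These genes were chosen for a large change in S371A, which favours such a direction.

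The genes that follow were picked from those named above by no set rule, so they do not show how common such differences are. PHLDB2 and HIP1R rose in S371A and were at -0.03 ± 0.12 and 0.04 ± 0.08 in S55A, differences of 1.75 ± 0.12 and 1.39 ± 0.09 (edgeR adjusted p = 4.55e-06 and 4.83e-06). NRP1 went in opposite directions, with -1.20 ± 0.16 in S55A and a difference of 2.70 ± 0.17 (edgeR adjusted p = 3.81e-06). KRT20 and S100P were lower in S371A and higher in S55A, at 2.95 ± 0.10 and 1.70 ± 0.10 there, and differed by -3.34 ± 0.12 and -2.39 ± 0.12 (edgeR adjusted p = 5.18e-08 and 8.05e-07). For PLXNA2 the S55A effect was 1.18 ± 0.15 and the difference 0.02 ± 0.17 (edgeR adjusted p = 0.973), for RASIP1 -1.30 ± 0.18 and -0.04 ± 0.22 (edgeR adjusted p = 0.938), and for SNHG26 -0.83 ± 0.11 and 0.01 ± 0.13 (edgeR adjusted p = 0.977); no difference was detectable in these 3 genes. PDIA4 and CALR differed, by -0.50 ± 0.06 and -0.43 ± 0.08 (edgeR adjusted p = 0.000566 and 0.00364), and the difference for HSP90B1 was -0.24 ± 0.08 (edgeR adjusted p = 0.0764).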

How the data were processed

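RNA of SW1990 cells was sequenced, and the authors deposited counts per gene as whole numbers together with FPKM values. In the 12157 genes that had at least 50 counts in each library, the FPKM values were the counts scaled by a gene's length and the library total, to within a relative deviation of 1.74e-05, and they were not used for any result. Per the submitters' processing notes, StringTie 1.3.0, HISAT2 2.0.4, edgeR and CASAVA were used, with no role named, and the human build was GRCh38 (mm10 is listed too). How reads were counted, with or without strand and against which annotation, is not stated in them.

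The deposited counts of 3 WT-1 and 3 S371A libraries entered edgeR 4.0.16 under R 4.3.3 (filterByExpr, TMM factors, robust quasi-likelihood F test) with Benjamini-Hochberg adjustment at 0.05 over all tested genes. The design holds no covariate. CPM uses TMM-scaled totals, and the SE of a log2 fold change is its size over the square root of F. The difference from S55A was tested in 1 fit over 12 libraries, for genes with the same coordinates in both tables. Results were recomputed with DESeq2 1.42.0, with limma-voom (limma 3.58.1), with upper quartile or RLE scaling, without a filter or with at least 1 CPM in 3 libraries, with a block for the replicate number, and without each library in turn.

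The members and lists were chosen with earlier results of these data known. The naming rule took PHGDH, the 25 largest rises and 25 largest falls among called genes of at least 5 CPM outside the interferon, AP-1 and immediate early, and cell cycle lists, with a symbol that is not clone-based and groups that do not overlap, and up to 4 called members with the smallest p of each family with several calls. It took 310 genes, of which a part is printed, and 1 gene is not reported here. CYR61, CTGF, MUC5B, MYO1A, TPM1, CALD1, RPL13A, SNHG5, SNHG12, HSPH1, DNAJB1, CALR, HSP90B1, GCLC, TXNRD1, CDKN1A, SH3D19, AC087190.3 and C16orf72 were chosen after their values were seen. Genes that were not called are given as values.

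GENCODE 29 gene models were compared in windows of 50 bases. Beside those given with their values, 10% or more of the windows of KRT18, KRT8, GSTM4, PDIA3, SLC2A3 and HSPA5 also occur in another gene, and 10% or more of the exonic bases of EFNB2, FZD4, KRT18, PDIA3, EIF4B, LAMA1 and TPM1 lie opposite a gene on the other strand, so these counts may include reads of those genes. Start sequences are those of RefSeq, GRCh38.p14.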

Additional observations from a re-analysis of the deposited data

Results flagged for a closer look

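For the 5 largest rises and 5 largest falls of the naming rule and for MIR4453HG, the S371A effect was compared with that of S55A by a test of the difference, and 8 genes differed by edgeR's test with adjusted p. Of all genes in that test 12.6% differed, and the genes were picked for a large S371A effect. The log2 difference was 1.74 ± 0.23 for OLR1 (edgeR adjusted p = 0.000769), 1.36 ± 0.39 for KLK14 (edgeR adjusted p = 0.0432) and 1.04 ± 0.24 for TM4SF1 (edgeR adjusted p = 0.0152), and TM4SF1 was also called higher in S55A, at 1.08 ± 0.20. On the lower side it was -2.10 ± 0.53 for SLC7A2 (edgeR adjusted p = 0.0325), -2.23 ± 0.15 for MAP3K13 (edgeR adjusted p = 4.55e-06), -2.32 ± 0.16 for EEF1A2 (edgeR adjusted p = 6.26e-06) and -1.58 ± 0.21 for ALPI (edgeR adjusted p = 0.000841). MAP3K13 and EEF1A2 were higher in S55A than in WT-2, at 0.35 ± 0.10 and 0.70 ± 0.12. The effect on MIR4453HG differed with an edgeR adjusted p of 4.55e-06; it stood at 5.15 CPM in WT-2 and 3.94 CPM in S55A (edgeR adjusted p = 0.175). For ITGB8, TMEM52B and TNNI2 no difference was detectable, at 2.13 ± 0.75, 1.16 ± 0.37 and -0.29 ± 0.19 (edgeR adjusted p = 0.0993, 0.0638 and 0.37). Each mutant belongs to 1 experiment, so that mutant and experiment cannot be told apart.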

How the results depend on the processing

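Of 2042 calls, RLE factors gave 2041, upper quartile factors 2068 (990 higher and 1078 lower), DESeq2 1766, limma-voom 2020, no filter 1983 (945 higher and 1038 lower) and the minimum of 1 CPM 2042. Leaving out 1 library gave 917 to 1576 calls, lowest without WT-1 replicate 2, and 277 to 448 of the 542 called family members; fewer samples were in those fits. Replicate numbers did not pair the samples: the deviations of same-numbered libraries correlated at -0.04, -0.09 and -0.01. With the number as a replicate block 784 genes and 255 family members were called. The difference from S55A was called in 2019 genes with RLE and 2046 with upper quartile factors. Without a filter 21 ribosomal protein genes were lower in place of 12. Upper quartile scaling moved the median log2 fold change of all tested genes from -0.0075 to -0.032. Of the called genes named, 117 in number, none changed sign under any alternative, 9 were lost without at least 1 library (SLC7A2, KDM6B, ITGB8, SH3D19, TPM1, CALD1, RPL13A, DNAJB1 and CDKN1A), TPM1 and DNAJB1 were also lost with no filter, and SLC7A2, KDM6B, SH3D19, TPM1 and IRS1 (adjusted p = 0.0566) with the replicate block. No alternative addresses the lower PHGDH level of the S371A libraries. Depth limits genes near the floor of 0.155 to 0.212 CPM.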

Other observations

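The largest rise of all tested genes had a clone-based name and was looked at after the values were seen. AC087190.3, annotated as a noncoding transcript overlapping the end of a gene (chromosome 16, 9104848 to 9113181, GRCh38), stood at 1.86, 1.94 and 1.26 CPM in WT-1 against 123.4, 131 and 121 CPM in S371A. It was low in every WT-1 library and high in every S371A library, at 6.21 ± 0.13 (edgeR adjusted p = 3.13e-06). Its model lies within that of C16orf72 (9091648 to 9121640), which stood at 213, 216 and 209 CPM in WT-1 against 119, 118 and 118 CPM in S371A. C16orf72 was lower in all 3 S371A libraries, at -0.85 ± 0.04 (edgeR adjusted p = 4.75e-05). Exons of C16orf72 on the same strand cover 100% of the exonic bases of AC087190.3. How reads were assigned between the models is not given in the sources used here, so the counts of both are uncertain. In S55A the values were 1.48 ± 1.74 for AC087190.3 and -0.64 ± 0.27 for C16orf72, and neither differed detectably from S371A (edgeR adjusted p = 0.162 and 0.713).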
